A study of Mus musculus with 2 samples.

Results

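The 2476 regions described here are distal DNase I hypersensitive sites that were found in both libraries of MN1 cells and ranked higher in replicate 2 than in replicate 1. MN1 is an immortalized mouse cell line of strain B6NCrl. The cells of both libraries had received methyltrienolone, a synthetic androgen, at 10 nM. Replicate 2 and replicate 1 are biological replicates of this 1 group, and the labels give neither tissue, sex nor age, nor the length of the treatment. No untreated library was analysed here, so every value is a level in treated cells and not a response to the androgen. All 7 neuronal marker genes, 4 of 5 motor neuron markers (Mnx1 was without), 3 of 5 sympathetic markers, 1 of 4 glial markers, 2 of 3 fibroblast markers and none of 3 blood markers had a region shared by both lists at most 1 kb from a start site.

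The authors' lists held 170745 distinct peaks on the main chromosomes in replicate 2 and 189648 in replicate 1, each with a deposited score from 1 to 150 of unstated meaning. A score was turned into its percentile within its own list. Merging peaks of both lists where they overlapped by 1 bp or more gave 127806 shared regions, of which 74676 on chromosomes 1 to 19 had their centre over 2.5 kb away from every transcription start site (TSS) of GENCODE M21. Members were the regions whose highest score stood at least 25 percentile points higher in replicate 2, and they make up 3.32% of these shared distal regions. The mirror set, at least 25 points higher in replicate 1, held 6439 regions or 8.62%. The measured ranks chose both sets, so their ranks are given as a description with no test. The labels name a HiSeq and a NextSeq instrument for replicate 1 and none for replicate 2, so sequencing run and replicate cannot be told apart, and read numbers were not analysed, so depth is unknown.

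Sites that DNase I cuts readily are stretches where nucleosomes have been displaced, usually by bound transcription factors, and those far from promoters include enhancers and the sites of CTCF, the zinc finger protein that bounds chromatin loops. The androgen receptor is a transcription factor that enters the nucleus when it binds hormone and sits as a dimer on an inverted repeat of a short half-site, the androgen response element (ARE). The glucocorticoid, progesterone and mineralocorticoid receptors bind the same palindrome, so a match to it names no single receptor.

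Among 21 factor motifs the ARE had the highest ratio of its share in members to its share in the other shared distal regions, so members that hold it are shown first. The pattern searched was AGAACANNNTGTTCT on both strands of the central 150 bp, with at most 2 mismatches among its 12 fixed letters. Capitals mark the element, sequences are from GRCm38 (mm10), and the sign in brackets is the strand printed. The first 4 are the full 150 bp windows of members with an element of at most 2 mismatches, chosen for their values: Fkbp5 and Zbtb16 because they are steroid response genes, Tfcp2 for its difference and Cep41 for its unbroken palindrome.
Fkbp5 intron, chr17:28513806-28513955 (+): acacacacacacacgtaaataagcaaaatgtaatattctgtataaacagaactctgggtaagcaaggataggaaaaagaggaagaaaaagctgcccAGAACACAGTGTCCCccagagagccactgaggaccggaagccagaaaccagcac
Zbtb16 intron, chr9:48786906-48787055 (+): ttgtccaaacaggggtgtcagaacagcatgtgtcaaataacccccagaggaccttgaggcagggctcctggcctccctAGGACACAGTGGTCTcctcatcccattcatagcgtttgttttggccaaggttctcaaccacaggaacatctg
Tfcp2 intron, chr15:100529186-100529335 (+): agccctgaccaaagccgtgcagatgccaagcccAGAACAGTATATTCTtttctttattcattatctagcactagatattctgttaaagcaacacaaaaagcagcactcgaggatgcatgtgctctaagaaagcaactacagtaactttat
Cep41 intron, chr6:30664756-30664905 (+): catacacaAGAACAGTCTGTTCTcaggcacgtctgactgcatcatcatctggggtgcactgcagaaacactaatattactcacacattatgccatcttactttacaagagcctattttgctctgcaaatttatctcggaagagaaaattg

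The next lines give the element and 7 flanking bases on each side for the other members named for an ARE, so that the half-sites can be compared. A line that opens with near, here and for CTCF below, names the gene of the nearest protein-coding TSS, at any distance.
Angptl4 last exon, chr17:33774884-33774912 (+): acaacagAGAACAAAATGTTCTgaggttg
Tacc1 intron, chr8:25214002-25214030 (+): cgtgtagAAAACATTTTGTTCTttgtttg
near Polr2m, chr9:71457054-71457082 (+): tctgttaAGAACAAGATGTTCCaataaat
near Ret, chr6:118255046-118255074 (+): agtctagGGAACAGCTTGTTCTcttacaa
Zfp652 intron, chr11:95814946-95814974 (+): catcatgAGAACAGTGTGTTCCatagcaa
4932411K12Rik intron, chr13:101278372-101278400 (+): aaaaggcAGAACACAGTGTACTggttcaa
near Rbms1, chr2:61174279-61174307 (+): tcctaaaAGAACAATAAGTTCTttctcct
near Exoc6b, chr6:85087465-85087493 (+): aggtctaAGAACAAGTTGATCTtctgtag
Lrrk1 intron near Aldh1a3, chr7:66384436-66384464 (+): ctctcacAGCACACTCTGTTCCcctttca

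Counting from 1 at the 5′ end of the 15 bp element, the Cep41 and Angptl4 elements matched every fixed letter. The Tacc1 element carried G2A, the Polr2m element T15C, the Ret element A1G, the Tfcp2 element G11A, the Zfp652 element T15C, the 4932411K12Rik element T13A, the Rbms1 element T10A and the Exoc6b element T12A. The Fkbp5 element carried T13C and T15C, the Zbtb16 element A3G and T12G, and the Lrrk1 element A3C and T15C. In all 278 members with an ARE, the A and C at positions 4 and 5 of the half-site, counted from its outer end, were kept in 93.5% and 95% of half-sites. The same letters were kept in 88.9% and 92.9% of half-sites in the other shared distal regions with an ARE, and in 75.6% and 83.9% of half-sites in matches that lay in flanking sequence. The A at position 1 was kept in 79.7% of half-sites in members, 80.8% in the other regions and 90.0% in flanking sequence. The A at position 3 was kept in 72.1% in members, 70.1% in the other regions and 81.0% in flanking sequence.

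The second pattern that was common among members was the core of the CTCF motif, searched as CCACNAGGNGGCGC with at most 2 mismatches. Of the 10 members without a mismatch, 4 are shown, chosen after their values were seen. The site named for Kcnj15 lies 60727 bp from its TSS, in an intron of Gm31641.
near Shank2, chr7:144426145-144426172 (-): gccagtgCCACCAGGGGGCGCtataata
near Zfp715, chr7:43283370-43283397 (+): gatctgaCCACGAGGTGGCGCtaagtgg
near Kcnj15, chr16:95196811-95196838 (+): tactcagCCACTAGGGGGCGCcaattgc
Zfpm2 intron, chr15:41029895-41029922 (-): gcagcgaCCACCAGGTGGCGCcaaccta

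The deposited scores of these members show how far the replicates stood apart. The Fkbp5 site lies in an intron 2524 bp from the nearest TSS of Fkbp5, which encodes a co-chaperone of steroid receptors, and its highest score was 90 in replicate 2 and 40 in replicate 1. That placed it at the percentile of 81.1 in replicate 2 and 34.7 in replicate 1. The Zbtb16 site, 48964 bp from the start of the gene for a zinc finger repressor, scored 69 in replicate 2 and 24 in replicate 1, or percentiles of 67.4 in replicate 2 and 9.14 in replicate 1. It was among the 10 members with the largest difference, at 58.2 points.

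The Angptl4 site lies in the untranslated part of the last exon of the gene for a secreted inhibitor of lipoprotein lipase, 3584 bp from its TSS, and scored 90 in replicate 2 and 47 in replicate 1. The Tfcp2 site, in an intron of the gene for a grainyhead-family transcription factor, scored 86 in replicate 2 and 32 in replicate 1. At Cep41, the gene for a ciliary protein, the intronic site scored 100 in replicate 2 and 59 in replicate 1. These 3 sites ranked between the percentiles of 78.8 and 86.1 in replicate 2 and between 22.1 and 56.1 in replicate 1.

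The remaining ARE members of the named set, which holds the 10 of at most 1 mismatch that ranked highest in replicate 2, were as follows. In an intron of Tacc1, which encodes a coiled-coil protein of the centrosome, the score was 112 in replicate 2 and 68 in replicate 1. At the intergenic site 27917 bp from Polr2m, the gene for a protein associated with RNA polymerase II, it was 97 in replicate 2 and 51 in replicate 1. At the intergenic site 57363 bp from Ret, the receptor tyrosine kinase for GDNF family ligands, it was 91 in replicate 2 and 59 in replicate 1. The other 4 with at most 1 mismatch lay in introns of Zfp652 and 4932411K12Rik, 211069 bp from Rbms1 and 18028 bp from Exoc6b. They scored between 78 and 85 in replicate 2 and between 40 and 55 in replicate 1. Of the CTCF members shown above, the intergenic site 8306 bp from Shank2 scored 72 in replicate 2 and 44 in replicate 1, and the other 3 scored between 58 and 68 in replicate 2 and between 32 and 37 in replicate 1.

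Over all members the highest score had a median of 55.5 in replicate 2, with the middle 50% from 48.0 to 65.0, and a median of 32.0 in replicate 1, with the middle 50% from 27.0 to 38.0. Their median percentile was 55.3 in replicate 2 and 22.1 in replicate 1, so members were mid-ranking sites in replicate 2 and low-ranking ones in replicate 1. Of the members, 65.8% ranked above the percentile of 50 in replicate 2 and 2.14% in replicate 1. Of the other shared distal regions, 56.2% did in replicate 2 and 63.9% in replicate 1. Only 135 members, or 5.45%, ranked above the percentile of 75 in replicate 2, whereas 24.9% of the other shared distal regions did.

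The difference between replicates had a median of 30.5 points among members and reached 61.8 points. It was at least 40 points in 289 members and at least 50 points in 41. Over all shared distal regions the median difference was -2.01 points, with a median percentile of 54.8 in replicate 2 and 59.4 in replicate 1. Members just inside the threshold had a difference of 25.046 points and scores of 60 in replicate 2 and 40 in replicate 1. Regions just outside it had a difference of 24.994 points and scores of 36 in replicate 2 and 19 in replicate 1.

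**Figure D1:**
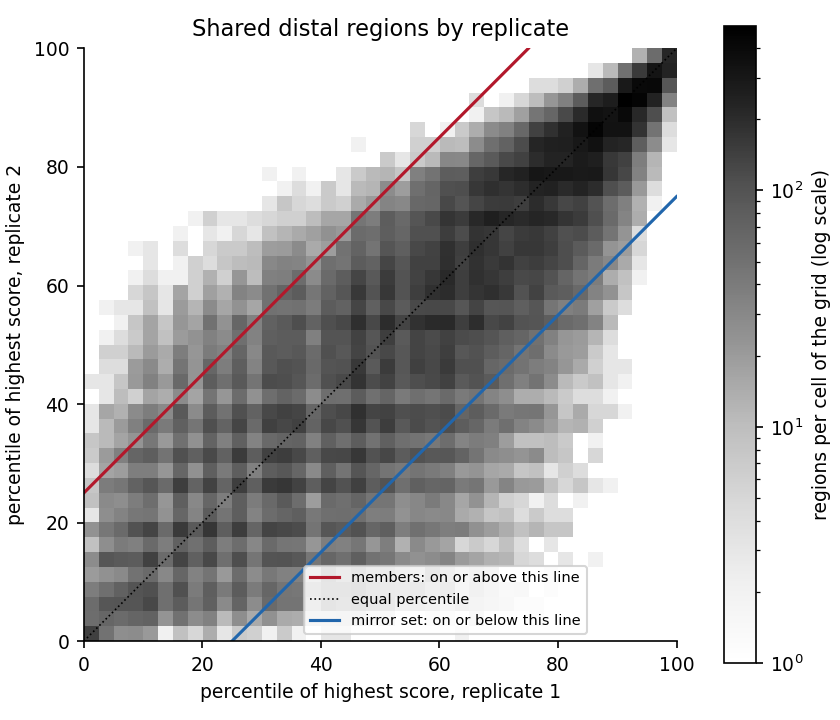
Percentile of the highest deposited score in replicate 2 (vertical axis) and replicate 1 (horizontal axis) for the 74676 shared distal regions, as the number of regions per cell of a grid on a log grey scale. The 2476 members lie on or above the red line and the 6439 regions of the mirror set on or below the blue line, and few members are found where both percentiles are high.

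The hotspots, wider stretches that the authors called from the same reads, moved with the score and are no independent measure. Every member overlapped a hotspot in both replicates, as did every other shared distal region. The hotspot at a member had a median width of 298 bp in replicate 2 and 201 bp in replicate 1, and it was wider in replicate 2 at 92.0% of members, against 38.6% of the other regions. The deposited −log10 of its false discovery rate was at the cap of 100 for 74.4% of members in replicate 2 and 18.3% in replicate 1. Of the other regions, 56.9% were at the cap in replicate 2 and 68.5% in replicate 1. The peaks stayed in place: in 73.1% of members the centres of both peaks were within 20 bp of each other, against 74.0% of the other regions.

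The largest differences were spread over many loci. Among the 10 members with the largest difference, in addition to the Zbtb16 and Tfcp2 sites, the highest was an intergenic region 159542 bp from the nearest protein-coding TSS, that of Nrep, with scores of 76 in replicate 2 and 25 in replicate 1. An intronic site of Igsf21, chr4:140172036-140172225, scored 106 in replicate 2 and 35 in replicate 1. An intronic site of Ppp2r2b, a regulatory subunit of protein phosphatase 2A, scored 69 in replicate 2 and 25 in replicate 1, and its best ARE match had 2 mismatches. The intergenic region chr11:34868856-34869065, 35320 bp from Spdl1, scored 69 in replicate 2 and 23 in replicate 1 and also held an ARE with 2 mismatches. Of the other 4, scores ran from 64 to 68 in replicate 2 and from 19 to 25 in replicate 1, and the one 131317 bp from Tm2d1 held a CTCF match with 2 mismatches.

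The 10 members that ranked highest in replicate 2 had percentiles from 27.1 to 68.0 in replicate 1. An intronic site of Ces4a, a carboxylesterase gene, led with scores of 120 in replicate 2 and 75 in replicate 1. It was followed by an intronic site of Mtss1, a regulator of membrane curvature and actin, with 114 in replicate 2 and 71 in replicate 1. An intronic site of Limk2, a kinase that phosphorylates cofilin, had 106 in replicate 2 and 52 in replicate 1. An intronic site of Hdac4, a histone deacetylase, had 105 in replicate 2 and 61 in replicate 1. The rest of the 10 highest scored between 100 and 112 in replicate 2 and between 35 and 68 in replicate 1, and included both upper Tacc1 sites, the Cep41 site and the Igsf21 site.

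The ARE was found in 278 members, or 11.2% (95% Wilson interval 10.0% to 12.5%), against 2324 of the 72200 other shared distal regions, or 3.22% (3.09% to 3.35%), a ratio of 3.49. Over all shared distal regions the share was 3.48%. In the mirror set it was 0.808% (0.616% to 1.06%), and in the members' own flanks, 150 bp taken 1 kb downstream, it was 1.58% (1.15% to 2.15%). The intervals cover counting error alone, regions are not replicates of a condition, and no test was made over regions. Read the other way, 10.7% (9.55% to 11.9%) of shared distal regions with an ARE were members, against the 3.32% of all.

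The share of regions that were members grew with the fit to the palindrome. Members were 12 of 66 regions with no mismatch (18.2%, interval 10.7% to 29.1%), 67 of 494 with 1 mismatch (13.6%, 10.8% to 16.9%) and 199 of 2042 with 2 mismatches (9.75%, 8.53% to 11.1%). With 3 mismatches the share was 5.77%, with 4 it was 3.37%, and with 5 or more it was 2.35%. The mirror set ran the other way, with 1 of the 66 regions without mismatch, 3 of the 494 with 1 mismatch and 9.78% of those with 5 or more.

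Other arrangements of the half-sites were searched beside the ARE. With the same half-sites 2 bp apart (AGAACANNTGTTCT), members were 1 of 65 regions with 1 mismatch (1.54%, 0.272% to 8.21%) and 4.52% of those with 2, and with 4 bp between them (AGAACANNNNTGTTCT) they were 1 of 76 with 1 mismatch (1.32%, 0.233% to 7.08%) and 4.26% of those with 2. The inverted pair turned outward (TGTTCTNNNAGAACA) was found in 2.46% (1.92% to 3.15%) of members and 1.35% (1.27% to 1.44%) of the other regions. The direct repeat of the half-site (AGAACANNNAGAACA) was found in 6.14% (5.26% to 7.15%) of members and 3.18% (3.05% to 3.31%) of the other regions. In the members' own flanks the direct repeat was at 4.32% (3.59% to 5.20%), and it was not weighted for GC content. Its unbroken form also had a high share of members, 5 of 20 regions (25%, 11.2% to 46.9%), with 9.48% (6.22% to 14.2%) at 1 mismatch and 5.74% at 2. A single half-site, AGAACA, was present in 25.8% of members and 15.6% of the other regions, and among regions without a full ARE it was present in 19.9% (18.3% to 21.6%) of members and 13.9% (13.6% to 14.1%) of the others. Some of these patterns overlap, since every half-site of an unbroken ARE or repeat is also counted as a single half-site.

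**Figure D2:**
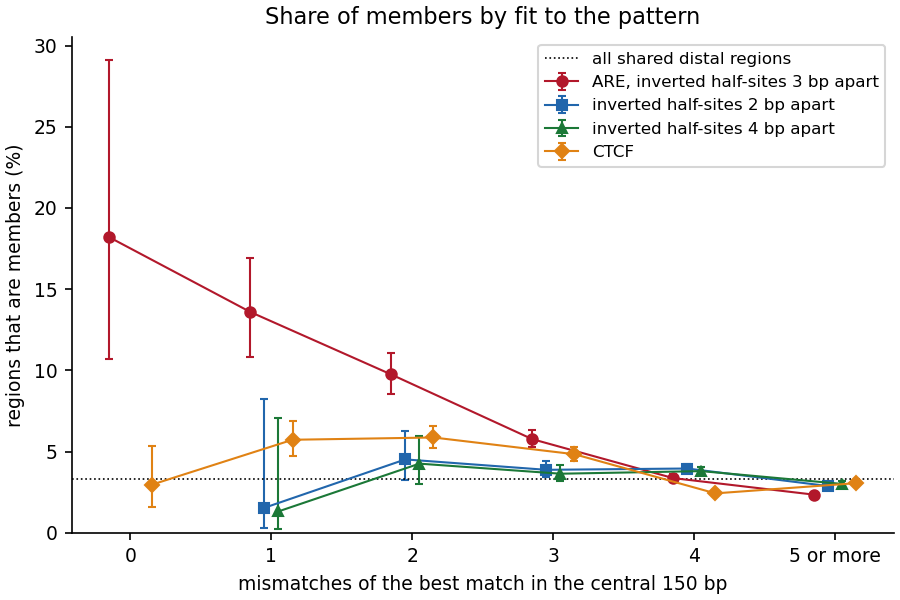
Share of shared distal regions that are members (percent, with 95% Wilson intervals) by the number of mismatches of the best match in the central 150 bp, for the ARE, for the same inverted half-sites 2 bp and 4 bp apart and for CTCF. The ARE line falls from 18.2% at 0 mismatches to 2.35% at 5 or more, the other spacings stay near the dotted line at 3.32%, and points over fewer than 20 regions are not drawn.

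A count of all 2080 hexamers, pooled over both strands and made after the motif shares had been seen, put the ARE half-site first by the difference in points, but at rank 50 by the ratio (1.65). AGAACA, with its complement TGTTCT, had the largest gain in points of share, with 25.8% of members and 15.6% of the other regions, and it stayed first when the median gain of hexamers with the same number of G and C letters was taken off. In that adjusted order, the A-rich AACAAA, in 19.6% of members and 10.8% of the other regions, and AAAGAA, in 20.1% of members and 11.8% of the other regions, stood at ranks 2 and 3. ATGTTC and GGAACA, each of which overlaps the half-site in sequence, stood at ranks 4 and 5. ATGTTC was in 14.2% of members and 7.46% of the other regions, and GGAACA in 18.5% of members and 13.0% of the other regions. CACTAG, which is part of common CTCF cores, stood at rank 7 with 13.5% of members and 8.31% of the other regions. At the lower end were CCAGGC, in 12.3% of members and 22.5% of the other regions, and AGCTGC, in 9.41% of members and 18.6% of the other regions. GACTCA, part of the AP-1 site, was in 12.3% of members and 19.7% of the other regions.

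CTCF matches were present in 387 members, or 15.6% (14.3% to 17.1%), and in 8.89% (8.69% to 9.10%) of the other regions, a ratio of 1.76. Over all shared distal regions the share was 9.12%, in the mirror set it was 0.854% (0.657% to 1.11%), and in the members' flanks it was 1.17%. Up to 2 mismatches, the share of members did not grow with the fit to the CTCF core as it did for the ARE. Members were 10 of 338 regions with a CTCF match without mismatch (2.96%, 1.61% to 5.36%), 5.73% of those with 1 mismatch and 5.87% of those with 2. With 3 mismatches the share was 4.84%, with 4 it was 2.43%, and with 5 or more it was 3.06%. The mirror set held 0 of the 338 regions without mismatch and 1 of the 1816 with 1 mismatch. Its share was 1.16% at 2 mismatches, 5.59% at 3, 9.59% at 4 and 10.4% at 5 or more. Regions with an unbroken CTCF core ranked high in both libraries, with a median percentile of 76.3 in replicate 2 and 70.5 in replicate 1. The rule limits their share of members, since a region within 25 points of the top in replicate 1 cannot be a member. Only 6 members held both the ARE and a CTCF match, and 659, or 26.6% (24.9% to 28.4%), held at least 1 of them, against 12.0% of the other regions.

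ARE members and CTCF members differed in rank. Members with the ARE had a median percentile of 59.7 in replicate 2 and 23.8 in replicate 1, and members with a CTCF match had 52.6 in replicate 2 and 20.4 in replicate 1. The hotspot at an ARE member had a median width of 347 bp in replicate 2 and 226 bp in replicate 1, and the hotspot at a CTCF member had 279 bp in replicate 2 and 201 bp in replicate 1. Between the percentiles of 25 and 50 in replicate 2, 7.44% (5.86% to 9.40%) of members held the ARE, between 50 and 75 it was 12.7% (11.1% to 14.4%), and above 75 it was 19.3% (13.5% to 26.7%), or 26 of 135. Among the other regions the same 3 shares were 3.18%, 3.46% and 3.34%. The CTCF share of members went the other way over these ranges. It was 17.4% (15.0% to 20.1%), 15.4% (13.7% to 17.3%) and 7.41% (4.07% to 13.1%), or 10 of 135 in the last, and the first 2 intervals overlap. In the other regions the CTCF share was 5.33%, 10.5% and 14.1%. These ranges were chosen after the motif shares had been seen. They use a rank that the rule also used, so within a range members are by selection the regions at least 25 points lower in replicate 1.

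Of 21 factor motifs, 3 were found in members at more than 1.5 times the share of the other regions, 9 at less than 1/1.5 of it and 9 in between. The third of the commoner ones, after the ARE and CTCF, was the forkhead site TGTTTAC, in 3.27% (2.64% to 4.05%) of members and 2.06% (1.95% to 2.16%) of the other regions. In the members' own flanks the forkhead site was at 2.22% (1.71% to 2.88%), which overlaps the interval of the members. Its ratio was not weighted for GC content. GATA sites (AGATAA) were in 11.3% of members and 9.44% of the other regions. With the other regions weighted to the members' GC content the GATA ratio was 0.912 (0.816 to 1.02), an interval that includes 1. SOX sites (ACAATGG) did not differ beyond counting error, at 1.74% (1.29% to 2.33%) of members and 1.73% (1.63% to 1.82%) of the other regions, nor did RUNX sites (TGTGGTT), at 4.20% (3.48% to 5.06%) of members and 3.71% (3.57% to 3.85%) of the other regions.

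Several other motifs were scarcer in members than in the other regions. The palindrome of EBF (TCCCNNGGGA), a family of factors of neuronal and B cell differentiation, was in 14 members, or 0.565% (0.337% to 0.947%), against 2.26% (2.16% to 2.37%) of the other regions and 4.77% (4.27% to 5.32%) of the mirror set. AP-1 sites (TGANTCA), bound by Jun and Fos dimers, were in 10.3% (9.12% to 11.5%) of members and 17.8% (17.5% to 18.0%) of the other regions. The E-box CAGCTG, bound by basic helix-loop-helix factors, was in 9.13% (8.06% to 10.3%) of members and 15.5% (15.2% to 15.8%) of the other regions. The E-box ratio was not weighted for GC content. NFI palindromes (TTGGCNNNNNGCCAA, up to 1 mismatch) were in 1.94% (1.47% to 2.56%) of members and 3.36% (3.23% to 3.49%) of the other regions. RFX palindromes (GTTGCCNNGGCAAC, up to 2 mismatches) were in 1.13% (0.784% to 1.63%) of members and 1.79% (1.69% to 1.89%) of the other regions, but with the other regions weighted to the members' GC content the RFX ratio was 0.716 (0.496 to 1.03), an interval that includes 1. Each of these 5 had a higher share in members than in their own flanks. In the flanks EBF was at 0.202% (0.0863% to 0.472%) and the E-box at 7.07% (6.12% to 8.15%), and both intervals overlap those of the members. AP-1 was at 5.33% (4.51% to 6.29%) in the flanks. Among members with the ARE, 7.91% (5.28% to 11.7%) also held an AP-1 site, against 14.1% (12.7% to 15.5%) of the other regions with the ARE.

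**Figure D3:**
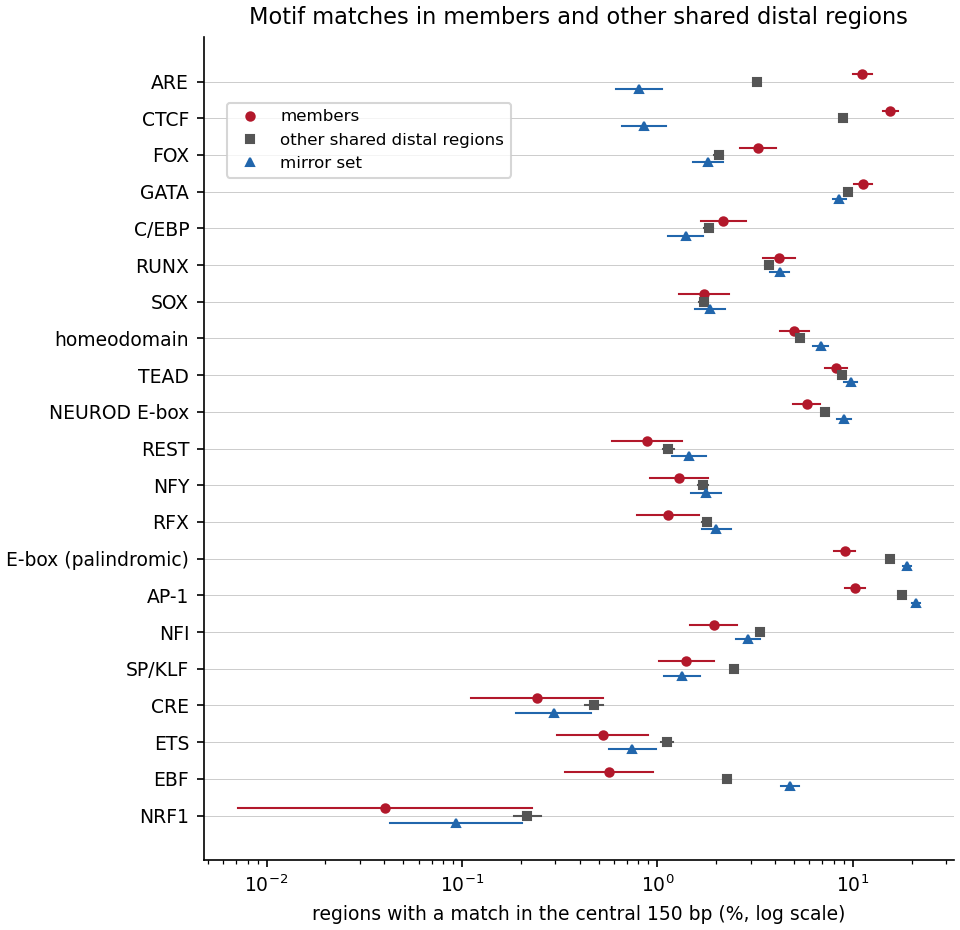
Share of regions with a match in the central 150 bp (percent, log axis, with 95% Wilson intervals) for 21 motifs in the 2476 members, the 72200 other shared distal regions, which include the mirror set, and the 6439 regions of the mirror set. The ARE and CTCF have the widest gap between members and mirror set, with the ARE at 11.2% of members and 0.808% of the mirror set and CTCF at 15.6% of members and 0.854% of the mirror set. EBF is found in 0.565% of members and 4.77% of the mirror set.

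The motif shares changed in steps along the whole scale of the difference, not only at the threshold. From the regions at least 50 points higher in replicate 1 to those at least 40 points higher in replicate 2, the ARE share was 0.234%, 0.848%, 1.13%, 2.16%, 4.39%, 7.75%, 10.7% and 14.9% (11.2% to 19.4% in the last range). The CTCF share peaked at 17.6% (16.9% to 18.3%) in regions 10 to 25 points higher in replicate 2, short of the threshold, and was 12.8% (9.43% to 17.1%) in the last range. The EBF share fell along the scale to 0.346% in the last range, against 7.01% (4.95% to 9.83%) in the first. Since members were chosen on this difference, these steps describe the ranking and are no independent measure of it.

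**Figure D4:**
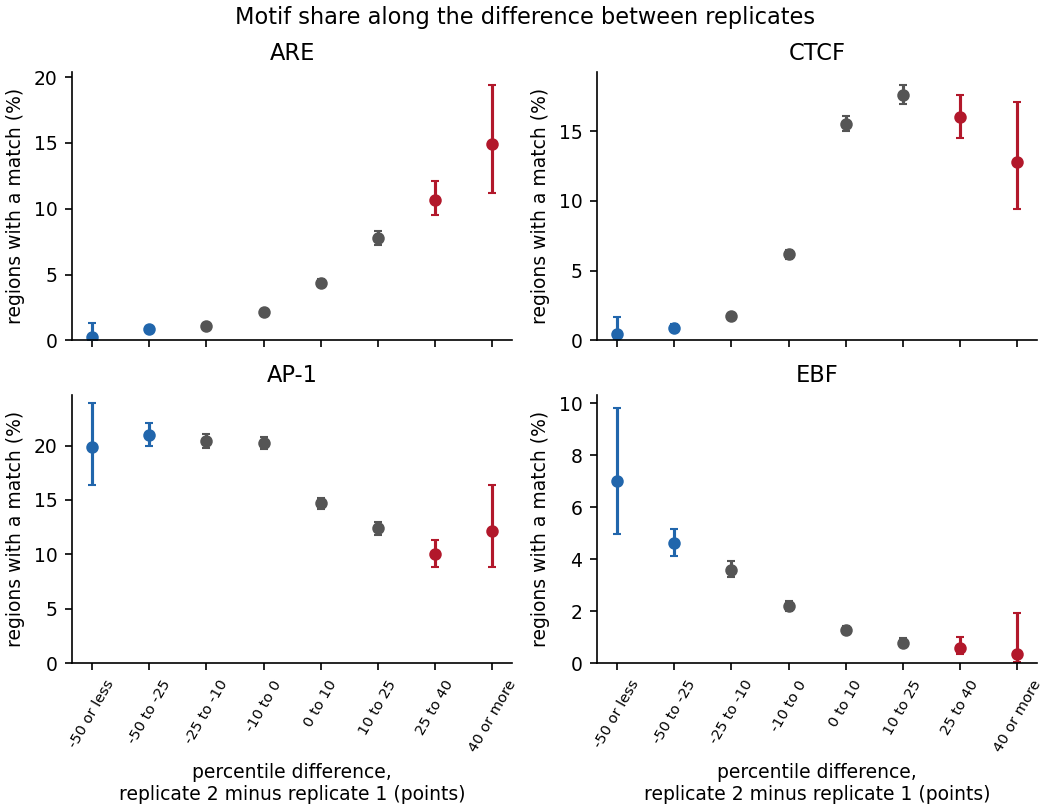
Share of shared distal regions with a match (percent, with 95% Wilson intervals) in 8 ranges of the percentile difference, replicate 2 minus replicate 1, for the ARE, CTCF, AP-1 and EBF. Red points are members and blue points the mirror set. The ARE share reaches 14.9% in the range of the largest differences, the CTCF share has its highest point at 17.6% between 10 and 25, and AP-1 and EBF are highest on the left.

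Within members the matches lay near the centre. Of ARE matches within 150 bp of the region centre, 38.8% (142 of 366) were centred within 25 bp of it in members and 29.6% (1087 of 3668) in the other regions. CTCF matches were more tightly placed, with 83.0% (338 of 407) within 25 bp in members and 63.9% (4746 of 7431) in the other regions.

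**Figure D5:**
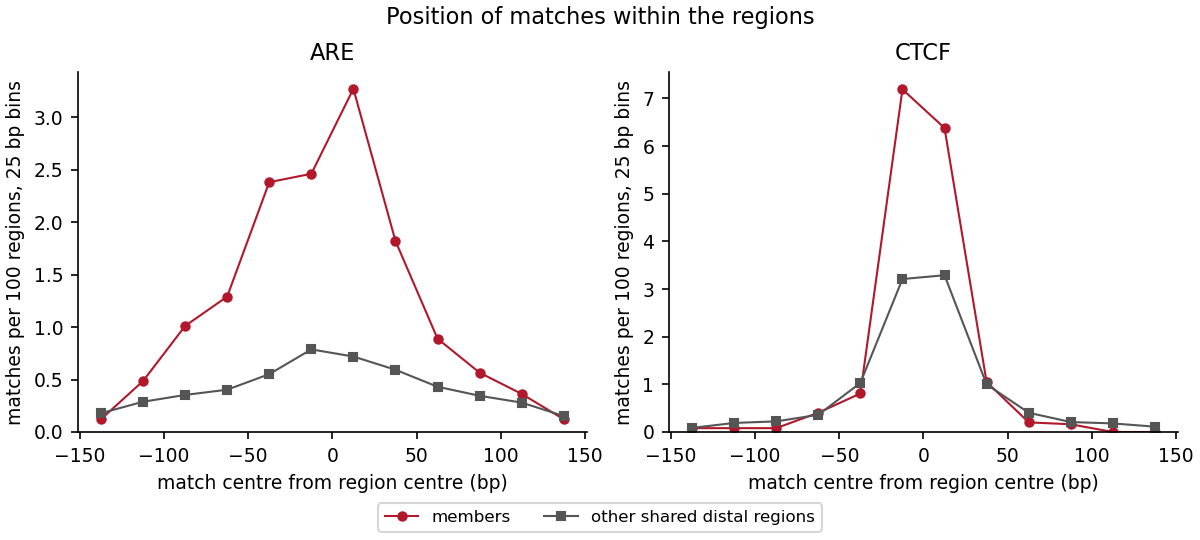
Number of matches per 100 regions in bins of 25 bp by distance from the region centre (bp), for the ARE and CTCF, in members and in the other shared distal regions. The ARE reaches 3.27 per 100 members in the bin from 0 to 25 bp, against 0.719 in the other regions, and 83.0% of CTCF matches in members lie within 25 bp of the centre, against 63.9% in the other regions.

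Base composition moved with membership. Members had a median GC content of 46.0% over their central 150 bp (middle 50% from 41.3% to 50.7%), against 50.7% (46.0% to 54.7%) in the other regions and 50.7% in the mirror set. The share of shared distal regions that were members was 10.6% (9.67% to 11.6%) where GC was below 40%, 5.79% from 40% to 45%, 3.57% from 45% to 50%, 2.24% from 50% to 55%, 1.29% from 55% to 60% and 0.790% (0.583% to 1.07%) at 60% and above. The ARE was commoner in members than in the other regions of the same GC range in each range with at least 100 members. Below 40% GC it was in 14.6% (11.6% to 18.3%) of members and 5.62% (4.91% to 6.44%) of the others, and from 50% to 55% in 8.49% (6.39% to 11.2%) of members and 2.82% (2.61% to 3.04%) of the others. With the other regions weighted to the members' GC content the ARE ratio was 2.78, against 3.49 without. The part of base composition in the ranks themselves was not tested.

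The members were not tied to 1 kind of place in the genome. Introns held 49.9% (47.9% to 51.8%) of members and 52.5% (52.1% to 52.8%) of the other regions, intergenic sequence 45.6% (43.7% to 47.6%) of members and 42.7% (42.3% to 43.1%) of the other regions, and exons 4.48% (3.74% to 5.37%) of members and 4.83% (4.68% to 4.99%) of the other regions. The median distance to the nearest TSS was 14128 bp in members and 12382 bp in the other regions. Members without any CpG made up 23.2% (21.6% to 24.9%), against 16.5% (16.2% to 16.8%) of the other regions. Repeats as soft-masked in the reference covered more than 50% of the window in 4.44% (3.70% to 5.33%) of members and 3.76% (3.62% to 3.90%) of the others.

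The share of shared distal regions that were members was highest on chromosome 16, at 4.92% (4.11% to 5.90%), and chromosome 1, at 4.37% (3.82% to 4.99%), and lowest on chromosome 4, at 2.47% (2.07% to 2.94%). Members were mostly scattered, with 21.2% having another member within 50 kb and a median of 201520 bp to the nearest one. The densest 1 Mb window, from 48 to 49 Mb of chromosome 9, held 10 members among 44 shared distal regions and includes both Zbtb16 members.

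Around 35 genes known as targets of androgen or glucocorticoid receptors in other cells, 15 of 333 shared distal regions within 50 kb of a TSS were members (4.50%, 2.75% to 7.30%), against 3.32% of all, which lies within that interval. The share depends on the setting. Within 100 kb it was 28 of 574 (4.88%, 3.40% to 6.96%). At a threshold of 40 points it was 4 of 333 within 50 kb (1.20%, 0.468% to 3.05%), against 0.387% of all. Both of these intervals lie above the share of all, but they cover counting error alone. At 15 points it was 11.4% (8.43% to 15.3%), against 10.4% of all. Ranked within the shared distal regions alone it was 7.21% (4.89% to 10.5%), where 5426 of all 74676 regions were members. Neither of the last 2 settings showed an excess beyond counting error. Of the 35 genes, 12 had at least 1 member within 50 kb. Over all protein-coding genes with a shared distal region within 50 kb, 2937 of 16549 did. The 35 genes had from 0 to 36 shared distal regions nearby, and the counts were not adjusted for that. Of the 9 regions with an ARE within 50 kb of these genes, 4 were members, and of the 27 within 100 kb 5 were, against 10.7% of all shared distal regions with an ARE. The 4 lay at Fkbp5, Zbtb16, Angptl4 and Aldh1a3, and the others within 50 kb lay near Mt1 and Mt2, Camkk2, Nfkbia, Ddit4 and Tiparp. The Aldh1a3 site, in an intron of the neighbouring kinase gene Lrrk1, scored 64 in replicate 2 and 39 in replicate 1.

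The other members near steroid targets held no ARE. Of 2 near Tiparp, which encodes an ADP-ribosyltransferase, the intronic one scored 81 in replicate 2 and 41 in replicate 1. The one 6266 bp from Tat, the tyrosine aminotransferase gene used as a classic glucocorticoid target in liver, scored 99 in replicate 2 and 61 in replicate 1. The one 18791 bp from the nearest TSS of Sgk1, a kinase of sodium transport, scored 61 in replicate 2 and 39 in replicate 1. The one 6491 bp from Rgs2, an inhibitor of G protein signalling, scored 55 in replicate 2 and 27 in replicate 1. The 1 near Camkk2 lay in an exon and scored 50 in replicate 2 and 19 in replicate 1. Genes of the list with 10 or more shared distal regions nearby and no member were Per1, Mt1, Mt2, Acsl3, Igf1r, Cdkn1a, Errfi1, Dusp1, Cebpb, Nfkbia and Ddit4.

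For the other gene lists the intervals within 50 kb included the share of all, 3.32%, except for neuronal and motor neuron genes. Among 180 regions near steroid receptor and cofactor genes 5 were members (2.78%, 1.19% to 6.34%), and they lay near Ncor1, a corepressor, and Fkbp4 and Fkbp5, co-chaperones. None of 131 regions near neuronal and motor neuron genes was a member, with an upper Wilson bound of 2.85%, but within 100 kb 5 of 207 were (2.42%, 1.04% to 5.53%). None of 55 regions near mesenchymal genes was a member, with an upper bound of 6.53%, and within 100 kb 5 of 106 were (4.72%, 2.03% to 10.6%). Near sympathetic and neuroblastoma genes 1 of 85 regions was a member, and near AP-1 and EBF genes 2 of 114 were.

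The genes with most members within 50 kb were of varied function. Dnm3, a dynamin GTPase of membrane fission, had 5 members among 33 shared distal regions, all in its introns, with scores from 41 to 86 in replicate 2 and from 22 to 50 in replicate 1. One of them held an ARE with 1 mismatch. Rapgef6, an exchange factor for Rap GTPases, had 4 of 12, Tacc1 had 4 of 19, Bcar3, an adaptor protein, had 4 of 29, and Rps6ka1, a ribosomal S6 kinase, had 4 of 39. Of the 4 Tacc1 members, 2 held an ARE and 2 a CTCF match, with 1 site holding both. Eif4a2 and its neighbour Rfc4 shared 3 members among 4 regions, as did Tex52 and its neighbour Gm44596. In all, 2937 of 16549 protein-coding genes with a shared distal region within 50 kb had at least 1 member there, and 6 had 4 or more.

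Most members held none of the main motifs. No match to the ARE, CTCF, AP-1, EBF, NFI or RFX pattern was found in 1537 members, or 62.1% (60.1% to 64.0%), against 65.1% (64.7% to 65.4%) of the other regions. Members with neither the ARE nor a CTCF match had a median percentile of 54.8 in replicate 2 and 22.1 in replicate 1, a median GC content of 46.0% and a median hotspot width of 300 bp in replicate 2 and 201 bp in replicate 1.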

How the data were processed

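DNase-seq peak and hotspot lists of both replicates were used as deposited. Per the listings deposited beside them, both kinds of list came from a filtered mm10 alignment of the single library together with 1 more input, without pooling. The sources used here name no aligner and no caller. The authors deposited for each 150 bp peak a score from 1 to 150 without stating its scale, so it was used only as a rank within its list. Hotspots carry a q-value as deposited by the authors, on the −log10 scale and capped at 100. A called list can depend on depth and on the caller's threshold, and the part of either in the ranks was not tested.

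Distinct peaks on the main chromosomes were ranked, with ties sharing their mean rank, and each region took its highest peak in each replicate. Coordinates are 1-based on mm10, and genes are from GENCODE M21. Place was assigned at the region centre, exons before introns. Motifs (26 patterns) were sought on both strands of the central 150 bp and of the flank 1 kb downstream. The labels say the libraries are biological replicates, but regions of 1 library are not replicates, so counts, medians and shares with 95% Wilson intervals were computed and no test was made.

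The regions named were the 10 with the largest difference, the 10 highest in replicate 2, up to 10 with an ARE of at most 1 mismatch, those at the threshold, and ARE members within 50 kb of steroid targets. Genes named were the 10 with most members and those of the lists. Results of some genes the rule takes are not reported here. CTCF examples and members without an ARE near steroid targets were chosen after their values were seen. Members, motifs and lists were chosen with earlier results of these data known. Merging, ranking and motif search were tested on simulated data. Alternatives changed the threshold, merging, ranking, distance, window, mismatches and comparison set. Python 3.11.15, numpy 2.4.6, scipy 1.17.1, pandas 2.3.3 and matplotlib 3.10.9 were used.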

Additional observations from a re-analysis of the deposited data

Results flagged for a closer look

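Differences of the same size were also found outside the regions described. On chromosomes X and Y, 84 of 1447 shared distal regions had a percentile at least 25 points higher in replicate 2 (5.81%, 95% Wilson interval 4.71% to 7.13%), against 3.32% on chromosomes 1 to 19. Among shared regions within 2.5 kb of a TSS on chromosomes 1 to 19, 821 of 50545 did (1.62%, 1.52% to 1.74%). These regions were not used in any comparison above, and what sets these shares was not tested.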

How the results depend on the processing

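Over 146 values of 12 results under 16 alternatives, 101 stayed within 1.5 times the count or within the interval of the reported value, 40 moved beyond it and 5 crossed a ratio of 1. The number of members was 7749 at a threshold of 15 points, 289 at 40 points, 5426 ranked within the shared distal regions alone, 1539 more than 10 kb from any TSS and 1629 in the stronger 50% of peaks of at least 1 list. The ARE share of members was 9.68% at 15 points, 14.9% at 40 points, 13.2% among stronger peaks, 14.0% in a 300 bp window and 3.19% with 1 mismatch fewer. The ARE ratio was 4.33 at 40 points, 4.42 among stronger peaks, 2.84 in a 300 bp window, 4.79 with 1 mismatch fewer, 2.78 with GC weighting, 13.9 against the mirror set and 7.13 against the members' flanks. The CTCF ratio was 2.03 at 15 points, 1.41 at 40 points, 2.03 ranked within the shared distal regions, 1.97 beyond 10 kb, 1.45 among stronger peaks, 2.49 with the others weighted to the members' mean percentile, 18.3 against the mirror set and 13.3 against flanks. Near steroid targets the share of members was 11.4% at 15 points, against 10.4% of all shared distal regions, 1.20% at 40 points, against 0.387% of all, and 4.88% within 100 kb, against 3.32% of all. Ratios that crossed 1 were those against flanks for AP-1 (1.92), EBF (2.80), NFI (24.0) and RFX (2.80), a comparison of another kind, and that of GATA with GC weighting (0.912). A match was found in only 2 member flanks for NFI, 5 for EBF and 10 for RFX, and the ratios leave out the counting error of the flanks. Of the other results, 13 values moved and 70 did not. The causes were not tested. AP-1, EBF and GATA patterns allow no mismatch, so fewer could not be tried. No paired analysis was possible because there is 1 group, and leaving out a replicate gives no value because membership needs both. Depth can limit which weak sites are listed, but it is unknown here and its part was not tested.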
